A study of Mus musculus with 12 samples.

Results

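The genes described here are 139 processed pseudogenes with measurable reads in mouse lung. They are the rows of the count table with the biotype processed_pseudogene, a name that contains -ps, and a mean of at least 0.5 CPM (the read count scaled to the library's total) over 12 libraries. The table held 56748 rows, of which 9999 were processed pseudogenes and 749 of these had such a name. The level chose the members, so their presence is no result, and the values at the floor were 0.576, 0.510 and 0.508 CPM for Pgam1-ps2, Llph-ps2 and Rps18-ps3 just inside it and 0.499, 0.481 and 0.474 CPM for Rps6-ps1, Rpl35a-ps3 and Psenen-ps just outside it. The members were also proposed with earlier results of these data known.

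RNA came from whole lungs of mice aged 4.5 months that all carried MMTV-PyMT and MMTV-Cre. In both transgenes the promoter of mouse mammary tumour virus, active mainly in mammary epithelium, is used, to express the polyoma middle T oncogene in the one and Cre recombinase in the other. The S1pr1 KO group was MMTV-Cre;S1pr1fl/fl; MMTV-PyMT, the C3 KO group was MMTV-Cre;C3Tdt:MMTV-PyMT, and the WT group carried MMTV-Cre and MMTV-PyMT alone, with 4 libraries in each. The study asks how the conditional knockouts bear on lung metastasis. Because the MMTV promoter drives Cre, recombination is limited to cells in which that promoter is or was active, and in whole tissue fewer cells of a type and less RNA per cell cannot be told apart. Replicate numbers follow the order of deposition, and nothing in the labels says that the libraries of a group came from separate animals.

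A processed pseudogene arises when a messenger RNA is copied back into DNA and inserted elsewhere in the genome, so it lacks the introns and usually the promoter of its parent gene. Genes with abundant messenger RNA in the germ line, such as those for ribosomal proteins, have left many such copies. A read from a copy that differs from its parent at few bases can be given to either one, and the insertion and sequence of a copy can differ between mouse strains.

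Total counts ranged from 32274797 to 53063470 per library, and 0.124% to 0.168% of them lay in the 139 pseudogenes. S1pr1, the gene of a sphingosine-1-phosphate receptor on chromosome 3 at 115504082 to 115508721 (GRCm39), had 131, 360, 147 and 161 CPM in S1pr1 KO 1 to 4, against 295, 489, 309 and 328 CPM in WT 1 to 4. C3, the gene of the central complement component on chromosome 17 at 57510970 to 57535136, had 471, 465, 595 and 1409 CPM in C3 KO 1 to 4, against 1022, 784, 875 and 794 CPM in WT 1 to 4. The library labelled S1pr1 KO 2 thus lay within the WT range of its targeted gene, and the library labelled C3 KO 4 above it. All 10 lung markers averaged over 1 CPM. Summed markers of other cells were higher in S1pr1 KO than in WT libraries for cardiomyocytes (6 genes, 675 to 2408 against 146 to 539 CPM), ciliated cells (5 genes, 341 to 476 against 176 to 280 CPM) and natural killer cells (4 genes, 57.1 to 71.5 against 19.2 to 48.0 CPM), with no marker of these lists averaging under 1 CPM. Their part in the results below was not tested.

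Of the 139 members, 34 derive by name from proteins of the large ribosomal subunit, 27 from proteins of the small subunit and 78 from other genes. A parent gene of the same name stem stood in the table for 131, with 104 different parents. The 8 without one were Eif4a-ps4, Dynlt1-ps1, Gstp-ps, H2af-ps2, Plk-ps1, Crry-ps, H1f11-ps and Glud-ps. In the GENCODE vM21 transcripts (GRCm38), the members were near copies of their parents, with a median identity of 99.3% (range 63.9 to 100%) and a median longest run of 289 identical bases. Identity was at least 99% for 84 of 131 pairs, and the named parent was the best coding match for 130 of 131. The exception was Gstm2-ps1, whose best match was Gstm1.

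Pairs whose split of reads differed much between libraries follow over 90 aligned bases each. Capital letters mark where pseudogene and parent differ. A read that lies within a stretch and covers no capital letter matches both alike. Rnps1-ps, Tdg-ps2 and Rpl34-ps1 also differ from their parents outside the stretch shown. Each stretch lies within the parent's coding sequence and is read 5′ to 3′ from the GENCODE vM21 transcripts.
Atp6v0c-ps2: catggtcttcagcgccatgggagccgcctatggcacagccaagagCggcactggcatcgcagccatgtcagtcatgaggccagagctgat
Atp6v0c: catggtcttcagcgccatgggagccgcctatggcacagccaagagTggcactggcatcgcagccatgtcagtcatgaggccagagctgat
Rnps1-ps: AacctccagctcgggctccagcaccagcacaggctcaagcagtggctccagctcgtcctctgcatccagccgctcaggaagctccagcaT
Rnps1: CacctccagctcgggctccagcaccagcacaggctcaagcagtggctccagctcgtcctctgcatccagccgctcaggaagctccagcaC
Tdg-ps2: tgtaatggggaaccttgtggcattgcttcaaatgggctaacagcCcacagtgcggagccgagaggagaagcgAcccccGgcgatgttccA
Tdg: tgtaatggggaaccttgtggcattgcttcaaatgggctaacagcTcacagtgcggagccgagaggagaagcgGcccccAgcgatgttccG
Rpl34-ps1: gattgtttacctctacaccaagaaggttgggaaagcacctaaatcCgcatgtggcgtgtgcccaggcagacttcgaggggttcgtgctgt
Rpl34: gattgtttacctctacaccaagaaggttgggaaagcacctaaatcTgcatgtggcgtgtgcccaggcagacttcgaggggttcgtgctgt
Tma7-ps: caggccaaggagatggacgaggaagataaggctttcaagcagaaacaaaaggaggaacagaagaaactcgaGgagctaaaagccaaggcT
Tma7: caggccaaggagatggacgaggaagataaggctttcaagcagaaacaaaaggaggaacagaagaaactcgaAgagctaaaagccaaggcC

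Over its whole length of 465 bases, Atp6v0c-ps2 differed from its parent at a single position, T111C (parent base first, counted from 1 at the pseudogene's 5′ end). Rpl34-ps1 differed at 2 of 354 bases, T132C and C318G, and Tma7-ps at 2 of 195, A123G and C141T. Glo1-ps differed at 3 of 555 bases, Rnps1-ps at 5 of 843 and Tdg-ps2 at 9 of 1194. The treatment of reads that match both copies is not given in the sources used here. The split of reads within each of these pairs is uncertain.

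Levels were low for most members. The mean over 12 libraries had a median of 2.77 CPM, with 34 members at 10 CPM or more and 6 at 50 CPM or more. Rpl17-ps10 was highest at 122 CPM, followed by Rpl21-ps15 at 109 CPM, Rpl14-ps1 at 90.1 CPM, Rps10-ps2 at 79.2 CPM, Rpl34-ps1 at 66.9 CPM and Rpl17-ps3 at 56.9 CPM. All 6 are copies of ribosomal protein genes. Rps12-ps3 (40.9 CPM) and Eif4a-ps4 (40.4 CPM) came next. Eif4a-ps4 has no parent of its stem, and its best coding match was Eif4a1, the gene of an RNA helicase of translation initiation, at 99.9% identity.

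Per kilobase of listed length, 17 of 131 members exceeded their parent in mean FPKM over the 12 libraries. Rps10-ps2, on chromosome 16 at 20640895 to 20641390, had 159 FPKM, against 2.01 FPKM for Rps10, a small subunit protein gene on chromosome 17. Between 92.0% and 96.7% of the reads of this pair lay in the pseudogene in the 12 libraries, and the transcripts differed at 5 of 496 bases. Mpc1-ps had 67.5 FPKM, against 8.34 FPKM for Mpc1, which encodes a subunit of the mitochondrial pyruvate carrier, and held 52.9% to 60.3% of the pair's reads. Gad1-ps had 1.51 FPKM, against 0.0470 FPKM for Gad1, the gene of a glutamate decarboxylase of neurons that is nearly silent here. These 3 had more reads than their parents in all 12 libraries. At the other end, Eef1a1-ps1 had 2.14 FPKM, against 1444 FPKM for Eef1a1, a translation elongation factor gene. Across the pairs, the pseudogene's share of reads had a median of 3.11%. The share was under 1% in 35 pairs, 1% to 10% in 68, 10% to 50% in 23 and at least 50% in 5. The 20 identical pairs had a median share of 7.68%, the 64 pairs from 99% up to identity 3.78%, and the 47 pairs under 99% a share of 1.94%.

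**Figure D1:**
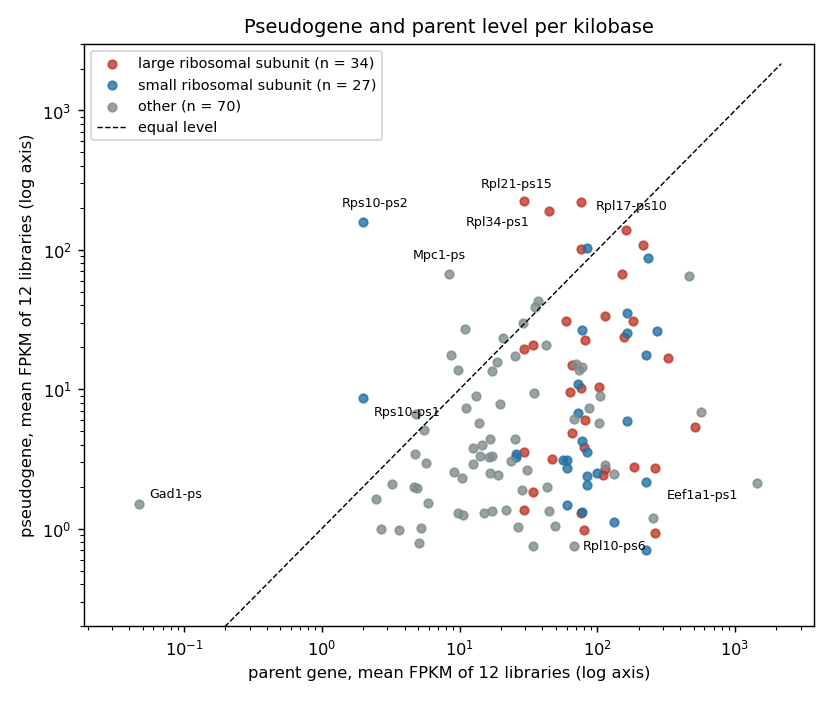
Mean FPKM of 12 libraries of each pseudogene (vertical, log axis) against its parent gene (horizontal, log axis) for 131 pairs, coloured by the parent's role, with a dashed line at equal levels. Most points lie below the line, and Rps10-ps2, Mpc1-ps and Gad1-ps lie far above it.

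Overlapping genes add to the uncertainty of the counts. Another gene overlapped 53 of the 139 members, and that gene was protein coding for 44, on the same strand in 21 and on the opposite strand in 23. Among members named here, Morf4l1-ps1 lies inside Lpp, Ube2n-ps1 inside Clock and Rpl10-ps6 inside Ide, each on the same strand. Rpl14-ps1 lies inside Trpm4, Rps12-ps3 inside Pdzd8, Mpc1-ps inside Zfp839, Rpl21-ps15 inside Wnk3 and Rpl21-ps8 inside Mbp, each on the opposite strand. The strand setting of the counting is not given in the sources used here.

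Most members varied little over the 12 libraries. The standard deviation of log2(CPM + 0.5) had a median of 0.22, was under 0.3 for 109 members and exceeded 0.5 for 15. It exceeded 1 for Atp6v0c-ps2 (2.67), Rnps1-ps (2.25) and Glo1-ps (1.5). The ratio of pseudogene to parent varied with a standard deviation over 0.5, on the log2 scale, in 21 of 131 pairs. In 18 of these 21, the sum of both varied less than the parent alone, as it did in 71 of all 131 pairs. The margin was slight for some of the 18, as for Rps25-ps1 (0.10053 against 0.10057) and Rpl17-ps9 (0.652 against 0.655). The sum varied less than the pseudogene alone in 14 of the 21. These 21 were picked by the spread of their ratio.

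**Figure D2:**
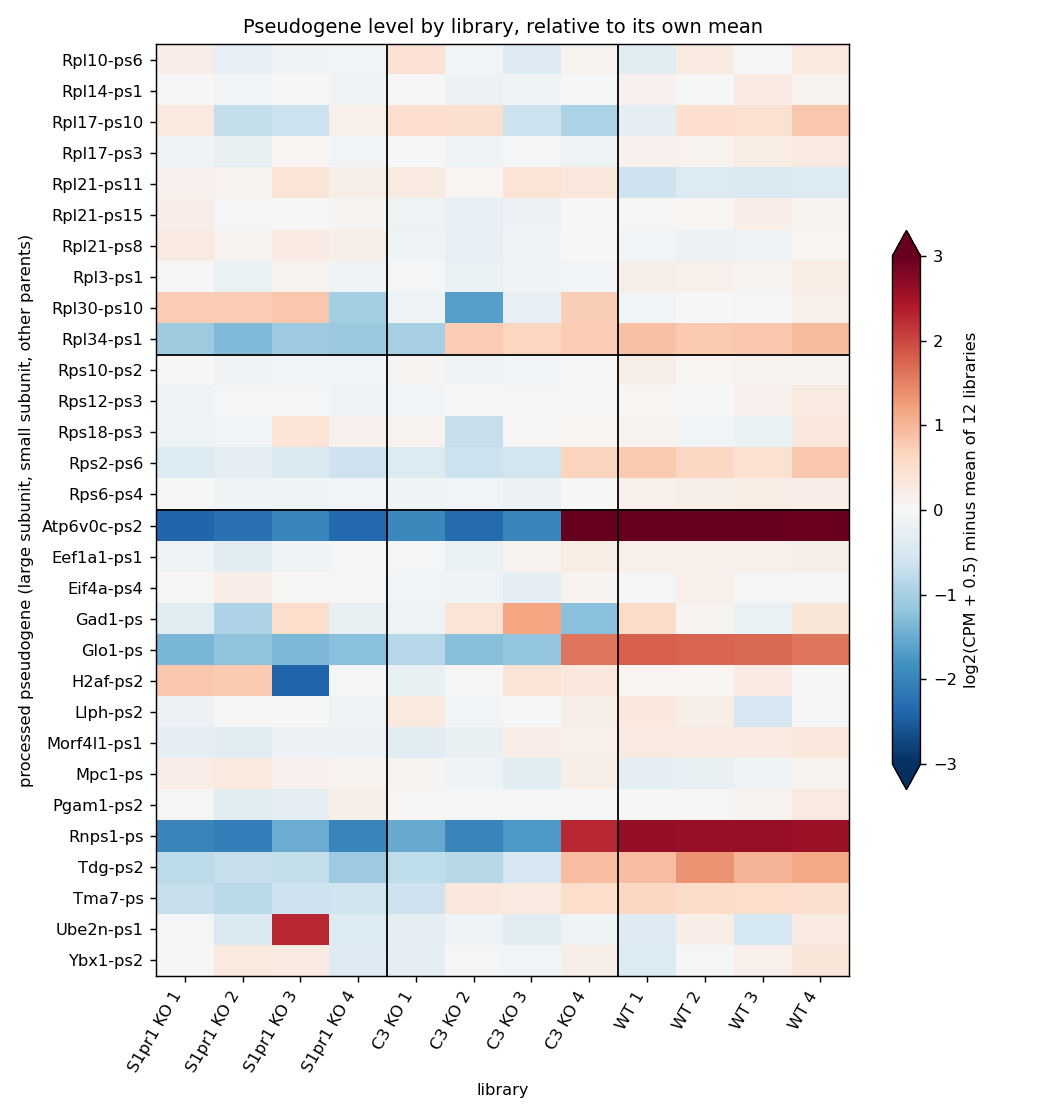
Level of the 30 named pseudogenes (rows, grouped by the parent's role) in each library (columns, S1pr1 KO, C3 KO, then WT), as log2(CPM + 0.5) minus the row's mean over 12 libraries. Atp6v0c-ps2, Rnps1-ps, Glo1-ps and Tdg-ps2 are red in the 4 WT libraries and in C3 KO 4 and blue in the other 7, and Rpl34-ps1 and Tma7-ps are blue in the 4 S1pr1 KO libraries and C3 KO 1.

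In S1pr1 KO against WT lungs, 10 of the 139 members were called by edgeR's quasi-likelihood test at an adjusted p under 0.05, with 9 that fell and 1 that rose. Among all 20229 genes tested, 0.534% fell and 0.821% rose. The members that fell were copies of genes for a vacuolar ATPase subunit (Atp6v0c-ps2), a splicing cofactor (Rnps1-ps), glyoxalase 1 (Glo1-ps), thymine DNA glycosylase (Tdg-ps2), a chromatin protein (Morf4l1-ps1), a translation-associated protein (Tma7-ps) and ribosomal proteins (Rpl34-ps1, Rpl17-ps3 and Rps6-ps4). Rpl21-ps11, a copy of a large subunit protein gene, rose. By role, 2 fell and 1 rose of the 34 large subunit members, 1 fell of the 27 small subunit members and 6 fell of the 78 others. The ranges of CPM did not overlap between S1pr1 KO and WT libraries for 26 members, 23 lower and 3 higher in S1pr1 KO, or 18.7%, against 11.3% of all genes tested. Of those genes, 783 were lower and 1497 higher in S1pr1 KO. Each adjusted p given for a gene is from this edgeR test, with Benjamini-Hochberg adjustment over all 20229 genes, and fold changes are on the log2 scale, followed by their standard error (SE).

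These calls depended on which libraries were in the fit. Without WT 4 or without S1pr1 KO 4, no member was called. Leaving out any other single WT or S1pr1 KO library left Rpl34-ps1 and Tma7-ps, and leaving out a C3 KO library, which shares only the estimate of the spread, left 10 to 14 members called, though not always the same ones. Without C3 KO 1, or without C3 KO 2, Rps6-ps4 was lost and Tpt1-ps3 called. Without C3 KO 4, the edgeR adjusted p was 1.3e-08 for Atp6v0c-ps2, 1.7e-06 for Rnps1-ps and 2.8e-06 for Glo1-ps. With each library left out in turn, their fold changes were -6.69 to -6.35, -6.73 to -6.05 and -5.58 to -5.21. Each of these members was called in 4 of these 12 fits, with edgeR adjusted p up to 0.144, 0.126 and 0.112. With both libraries that go against their label left out, 11 members were called, 10 of them lower.

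Atp6v0c encodes the proton-conducting ring subunit of the vacuolar ATPase, the pump that acidifies lysosomes. Its copy Atp6v0c-ps2 lies on chromosome 6 at 37783021 to 37783485 (GRCm39) and had 0.283, 0.366, 0.550 and 0.310 CPM in S1pr1 KO 1 to 4, 0.574, 0.322, 0.550 and 32.6 CPM in C3 KO 1 to 4, and 35.3, 32.0, 31.8 and 31.4 CPM in WT 1 to 4. The libraries thus fell into a high set, of the 4 WT libraries and the library labelled C3 KO 4, and a low set of the other 7, with nothing between. The fold change in S1pr1 KO against WT was -6.48 (SE 1.39, adjusted p = 0.0462). The parent Atp6v0c, on chromosome 17, went the other way, with 105, 109, 108 and 111 CPM in S1pr1 KO, 107, 115, 110 and 86.3 CPM in C3 KO, and 86.9, 84.0, 77.6 and 78.6 CPM in WT libraries. Atp6v0c rose by 0.37 in S1pr1 KO against WT (SE 0.08, adjusted p = 0.0429). The reads of both together came to 109 ± 2.41 CPM in S1pr1 KO, 113 ± 5.07 CPM in C3 KO and 114 ± 5.98 CPM in WT lungs (SD, n = 4 each), and these sums overlapped between all groups.

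Rnps1, which encodes a protein of the exon junction complex, showed the same split of libraries. Its copy Rnps1-ps on chromosome 6 (7982541 to 7983383) had 0.151, 0.122, 0.413 and 0.155 CPM in S1pr1 KO, 0.401, 0.146, 0.275 and 11.9 CPM in C3 KO, and 15.6, 15.1, 15.1 and 15.0 CPM in WT libraries. Rnps1 itself had 66.3, 65.1, 71.0 and 65.3 CPM in S1pr1 KO, 63.1, 68.1, 60.3 and 42.9 CPM in C3 KO, and 43.2, 47.5, 45.8 and 48.0 CPM in WT libraries. In S1pr1 KO against WT, the pseudogene fell by 6.22 on the log2 scale (SE 1.27, adjusted p = 0.0405) and the parent rose by 0.50 (SE 0.11, adjusted p = 0.0493). The pair's sum was 67.1 ± 2.88 CPM in S1pr1 KO and 61.3 ± 1.96 CPM in WT lungs (SD, n = 4 each), a difference much smaller than that of either gene but with ranges that did not overlap (exact permutation test, two-sided p = 0.0286, which no split of 4 and 4 libraries can go below).

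Tdg removes thymine from mispaired DNA. Its copy Tdg-ps2, on chromosome 10 like Tdg itself, had 0.848, 0.928, 0.908 and 0.589 CPM in S1pr1 KO, 0.860, 0.791, 1.13 and 3.85 CPM in C3 KO, and 3.88, 5.38, 4.14 and 4.66 CPM in WT libraries. The highest S1pr1 KO library lay far below the lowest WT library. Its fold change in S1pr1 KO against WT was -2.48 (SE 0.45, adjusted p = 0.0309), and that of Tdg was 0.70 (SE 0.13, adjusted p = 0.0314). Here the sum did not level out, with 33.4 ± 1.65 CPM in S1pr1 KO and 24.1 ± 1.20 CPM in WT lungs (SD, n = 4 each).

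Glo1 encodes the enzyme that clears methylglyoxal, a by-product of glycolysis, and it moved with its copy rather than against it. Glo1-ps on chromosome 2 had 0.0754, 0.147, 0.0826 and 0.124 CPM in S1pr1 KO, 0.315, 0.117, 0.165 and 4.02 CPM in C3 KO, and 4.62, 4.51, 4.37 and 4.01 CPM in WT libraries. Glo1 had 48.8, 49.0, 47.0 and 48.9 CPM in S1pr1 KO, 43.7, 49.4, 48.8 and 73.2 CPM in C3 KO, and 69.5, 69.0, 71.7 and 66.9 CPM in WT libraries. The libraries split as for Atp6v0c-ps2, in the parent as well as in the copy. Glo1-ps fell by 5.36 on the log2 scale in S1pr1 KO against WT (SE 1.03, adjusted p = 0.0329), and Glo1 had a fold change of -0.55 that missed the threshold (SE 0.13, adjusted p = 0.0542).

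Rps2, a small subunit protein gene, has 2 copies among the members, neither called by edgeR in S1pr1 KO against WT. Rps2-ps6 had 0.155 to 0.342 CPM in S1pr1 KO, 0.146 to 0.258 CPM in C3 KO 1 to 3, 1.10 CPM in C3 KO 4 and 0.880 to 1.28 CPM in WT libraries, which is again the same split. Its fold change was -2.15 (SE 0.54, adjusted p = 0.0685). Rps2-ps13 had 12.4 to 14.8 CPM in S1pr1 KO, 12.6 to 12.9 CPM in C3 KO 1 to 3, 18.9 CPM in C3 KO 4 and 17.1 to 21.1 CPM in WT libraries (fold change -0.50, SE 0.13, adjusted p = 0.0682). Both passed with all libraries by DESeq2 and by voom (voom adjusted p = 0.00866 and 0.0162), in edgeR's fit to the 2 groups alone, and in edgeR's fit without the library labelled C3 KO 4 (adjusted p = 0.00516 and 0.00925).

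Rpl34-ps1, on chromosome 6 at 71101594 to 71101947, split the libraries in another way. It had 26.0, 21.9, 25.6 and 25.1 CPM in S1pr1 KO, 27.4, 93.5, 86.3 and 94.2 CPM in C3 KO, and 102, 95.2, 97.6 and 108 CPM in WT libraries. The low set here was the 4 S1pr1 KO libraries and C3 KO 1. Rpl34, which encodes a large subunit protein, had 172, 160, 171 and 161 CPM in S1pr1 KO, 159, 75.6, 79.7 and 82.2 CPM in C3 KO, and 89.2, 92.0, 84.3 and 95.1 CPM in WT libraries. The pseudogene held 12.1% to 14.7% of the pair's reads in the low set and 50.9% to 55.3% in the other 7 libraries. Rpl34-ps1 fell by 2.07 on the log2 scale in S1pr1 KO against WT (SE 0.29, adjusted p = 0.0145), and Rpl34 had a fold change of 0.85 just short of the threshold (SE 0.19, adjusted p = 0.0535). The sum was 191 ± 8.22 CPM in S1pr1 KO and 191 ± 9.01 CPM in WT lungs (SD, n = 4 each; two-sided exact permutation p = 0.943).

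Tma7-ps, a copy on chromosome 1 of a small gene named for the translation machinery, divided the libraries as Rpl34-ps1 did. It had 4.60, 4.25, 4.87 and 4.96 CPM in S1pr1 KO, 4.88, 9.96, 9.43 and 11.5 CPM in C3 KO, and 12.2, 11.7, 11.5 and 10.9 CPM in WT libraries. It fell by 1.35 in S1pr1 KO against WT (SE 0.20, adjusted p = 0.0145). Tma7 had 50.9 to 58.7 CPM in S1pr1 KO and 47.0 to 51.7 CPM in WT libraries, with overlapping ranges (fold change 0.11, SE 0.06, adjusted p = 0.355).

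**Figure D3:**
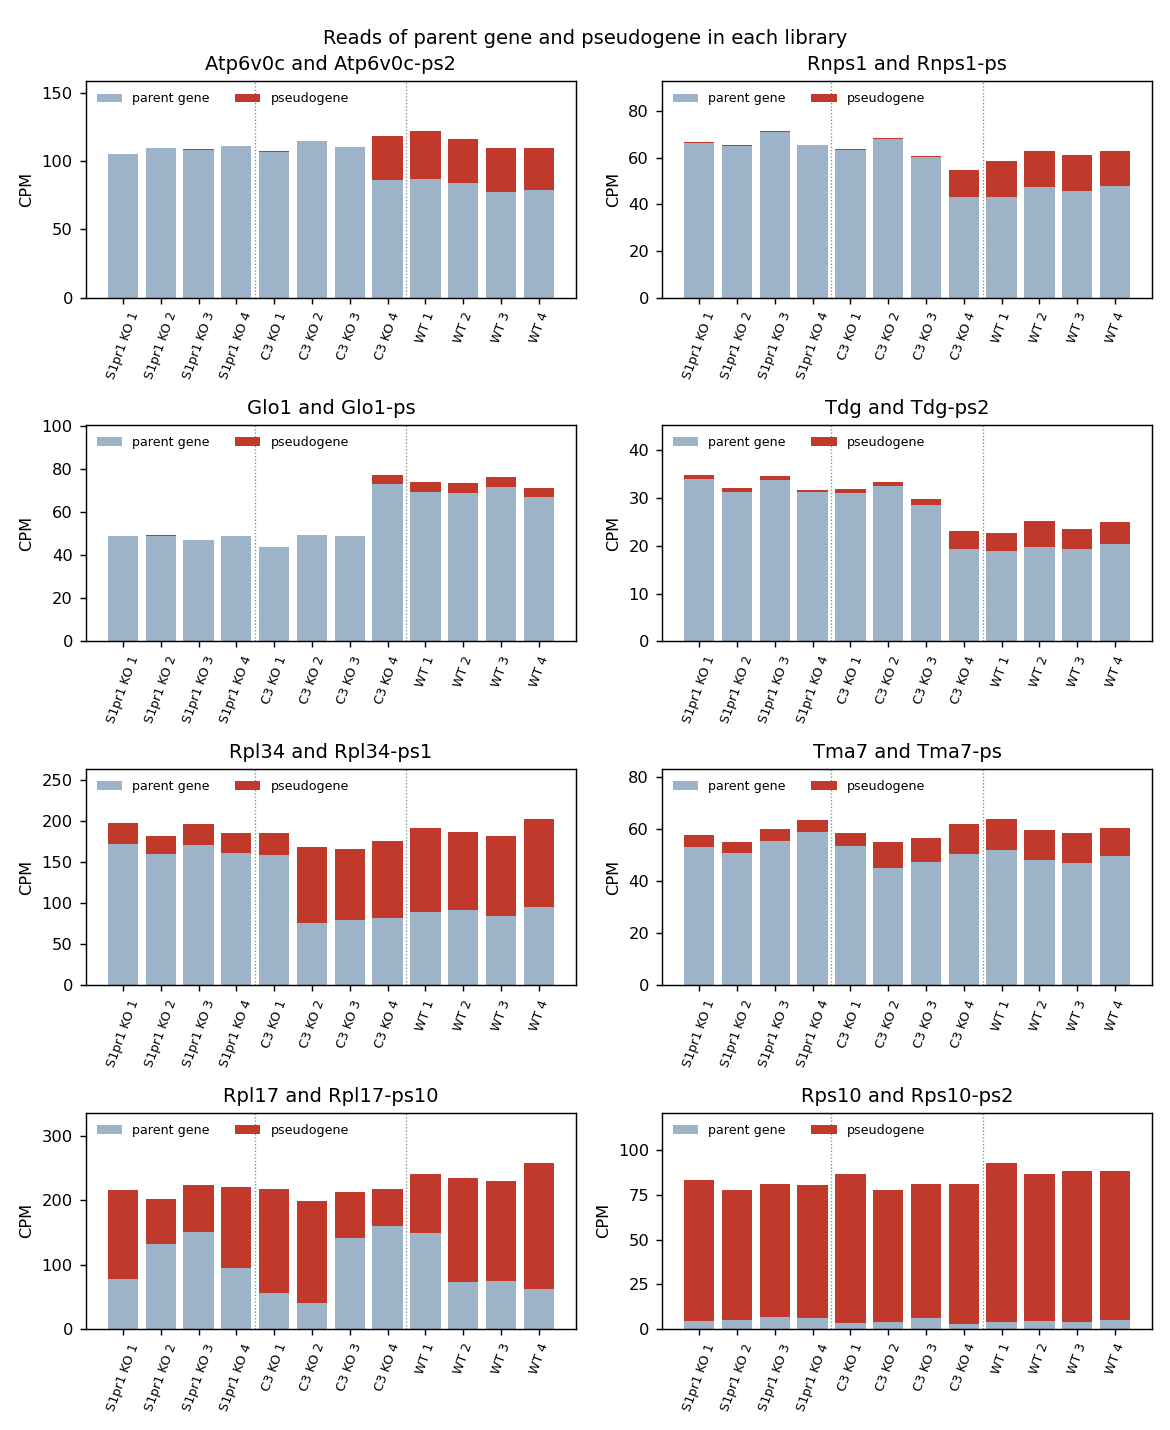
Stacked bars of CPM of the parent gene (blue-grey) and its pseudogene (red) in each library, S1pr1 KO, C3 KO and WT from left to right, for 8 pairs. The red part of Atp6v0c-ps2, Rnps1-ps and Tdg-ps2 stands out in the WT libraries and C3 KO 4, where that of Glo1-ps is a thin band. That of Rpl34-ps1 and Tma7-ps is short in S1pr1 KO and C3 KO 1. The red part of Rpl17-ps10 varies within every group and that of Rps10-ps2 fills nearly the whole bar.

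The other calls in S1pr1 KO against WT were smaller. Morf4l1-ps1, a copy of a gene for a subunit of histone acetylation complexes, had 18.4, 17.9, 19.5 and 19.8 CPM in S1pr1 KO and 27.2, 27.2, 26.5 and 27.8 CPM in WT libraries (fold change -0.56, SE 0.10, adjusted p = 0.0314). In C3 KO it had 18.0 and 19.0 CPM in libraries 1 and 2 but 25.5 and 25.0 CPM in libraries 3 and 4. Morf4l1 itself had a fold change of 0.15 (SE 0.06, adjusted p = 0.220). Rpl17-ps3 had 48.5 to 58.5 CPM in S1pr1 KO and 61.1 to 68.3 CPM in WT libraries (fold change -0.32, SE 0.06, adjusted p = 0.0378), and this call was lost at an adjusted p of 0.0509 without the 2 libraries that go against their label. Rps6-ps4, whose 750 bases are identical to Rps6, had 18.0 to 19.5 CPM in S1pr1 KO and 21.8 to 23.1 CPM in WT libraries (fold change -0.31, SE 0.06, adjusted p = 0.0429). With each library left out in turn, Rps6-ps4 was called in 2 of 12 fits, with edgeR adjusted p up to 0.140, and it was also lost with no filter and in the fit to the 2 groups alone. Rps6 changed in the same direction by -0.13 without passing (SE 0.05, adjusted p = 0.162). Rpl21-ps11 had 0.735, 0.708, 0.963 and 0.775 CPM in S1pr1 KO, against 0.234, 0.355, 0.341 and 0.355 CPM in WT libraries (fold change 1.27, SE 0.24, adjusted p = 0.0314). These WT values rest on 10 to 13 reads per library. With each library left out in turn, Rpl21-ps11 was called in 4 of 12 fits, with edgeR adjusted p up to 0.0931. It was not called with no filter, nor with a filter of 1 CPM in 4 libraries.

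Among the 104 parents, 5 rose and 1 fell in S1pr1 KO against WT, where 0.821% of all genes tested rose and 0.534% fell. Besides Atp6v0c, Rnps1 and Tdg, those that rose were Rpl30 (0.81, SE 0.17, adjusted p = 0.0462) and Hmgb1 (0.44, SE 0.06, adjusted p = 0.0145), which encodes a chromatin-bound high mobility group protein. With each library left out in turn, the calls of Atp6v0c, Rnps1 and Tdg held in 3, 2 and 4 of 12 fits, with edgeR adjusted p up to 0.112, 0.117 and 0.0837. The ratio of pseudogene to parent, as a log2 difference with 0.5 CPM added to each, was tested by two-sided exact permutation in all 131 pairs. It reached the smallest possible p of 0.0286 in 18 pairs, those whose groups did not overlap, without adjustment over the pairs. With no difference, a pair reaches that p in a share of 0.0286 of all splits. Separation was more common than that over the whole data, as CPM ranges did not overlap for 11.3% of all genes tested. The count of 18 therefore cannot be read against 0.0286 alone. Pairs that share a parent are not independent, and no ratios of other genes were formed for comparison. The largest differences were -5.65 for Atp6v0c-ps2, -5.02 for Rnps1-ps, -2.89 for Rpl34-ps1, -2.65 for Tdg-ps2 and -2.49 for Glo1-ps. The lowest of these pseudogenes lie at or under the 0.5 CPM added, which shrinks their differences. With 0.1 FPKM added to FPKM values instead, the difference was -4.27 for Glo1-ps, -6.71 for Atp6v0c-ps2 and -6.32 for Rnps1-ps, and Glo1-ps then exceeded Rpl34-ps1 and Tdg-ps2.

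In C3 KO against WT lungs, no member was called, among 2 genes called of all those tested, or 0.00989%. At an unadjusted p under 0.05 edgeR found 30 members, or 21.6%, against 10.96% of all genes tested. DESeq2 called 4 members among 177 genes, namely Rpl17-ps3, Rpl21-ps11, Rpl3-ps1 and Rps6-ps4. CPM ranges did not overlap for 18 members, 17 lower and 1 higher in C3 KO, or 12.9%, against 6.12% of all genes tested, where 590 were lower and 649 higher. Rpl21-ps11 had the lowest p, with 0.860, 0.674, 0.989 and 0.917 CPM in C3 KO, against the WT values above (fold change 1.41, SE 0.24, adjusted p = 0.134). The next were Rpl17-ps3 (-0.28, SE 0.06, adjusted p = 0.242), Rps6-ps4 (-0.29, SE 0.06, adjusted p = 0.242), Rpl3-ps1 (-0.28, SE 0.07, adjusted p = 0.272) and Rpl21-ps15 (-0.26, SE 0.07, adjusted p = 0.302).

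The count in C3 KO turned on 1 library and on the tool. Without the library labelled C3 KO 4, whose C3 level was the highest of all 12, 6 members were called in C3 KO against WT, all lower, while 0.112% of all genes tested were called lower. These were Atp6v0c-ps2 (fold change -6.07, adjusted p = 9.2e-08), Rnps1-ps (-5.78, adjusted p = 9.1e-06), Glo1-ps (-4.44, adjusted p = 4.1e-05), Tdg-ps2 (-2.28, adjusted p = 0.000983), Rps2-ps6 (-2.47, adjusted p = 0.0118) and Rps2-ps13 (-0.56, adjusted p = 0.0231). With that library in the fit, the fold change of Atp6v0c-ps2 was -1.94 (SE 1.05, adjusted p = 0.524). Limma's voom with quality weights, which gives less weight to variable libraries, called 4 of these members with all libraries in: Atp6v0c-ps2 (-5.35, adjusted p = 0.00642), Rnps1-ps (-5.11, adjusted p = 0.00642), Glo1-ps (-3.85, adjusted p = 0.0106) and Tdg-ps2 (-2.09, adjusted p = 0.0167). The 2 comparisons share the WT libraries, so the members they have in common are not independent of each other.

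In S1pr1 KO against C3 KO lungs, edgeR called no member and 0% of all genes. An unadjusted p under 0.05 was found for 14 members, or 10.1%, against 12.05% of all genes tested. DESeq2 called 2 members among 317 genes, and voom none among 36. CPM ranges were apart for 5 members, 1 lower and 4 higher in S1pr1 KO, or 3.60%, against 6.15% of all genes tested, where 360 were lower and 885 higher. Rpl34-ps1 (fold change -1.64, SE 0.28, adjusted p = 0.0811) and Tma7-ps (-0.97, SE 0.20, adjusted p = 0.125) had the lowest p, and both were called without C3 KO 1. Atp6v0c-ps2 and Glo1-ps had fold changes of -4.54 (SE 1.35) and -3.46 (SE 1.03), each with an adjusted p of 0.258, and without the library labelled C3 KO 4 these became -0.41 (adjusted p = 0.476) and -0.93 (adjusted p = 0.312). Rpl21-ps8 was higher in each S1pr1 KO library, at 10.2 to 11.3 CPM, than in any C3 KO library, at 7.85 to 9.45 CPM (fold change 0.31, SE 0.09, adjusted p = 0.260).

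**Figure D4:**
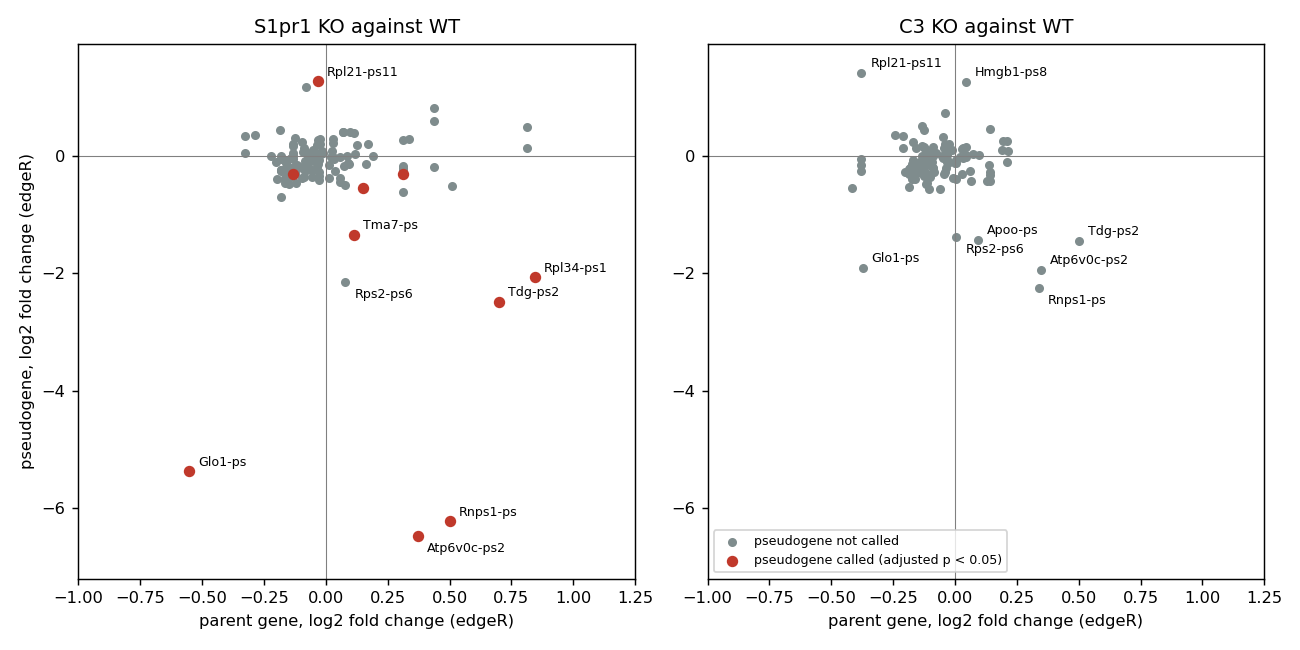
Log2 fold change of each pseudogene (vertical) against that of its parent (horizontal) for 131 pairs, from edgeR, in S1pr1 KO against WT (left) and C3 KO against WT (right). Red points are pseudogenes with an adjusted p under 0.05. Most pairs lie near 0 on both axes, and Atp6v0c-ps2, Rnps1-ps, Tdg-ps2 and Rpl34-ps1 on the left combine a lower pseudogene with a higher parent.

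As a whole, the members lay slightly lower in both knockouts. The median fold change of the 139 was -0.12 in S1pr1 KO against WT and -0.13 in C3 KO against WT, while that of all genes tested was -0.00108 and -0.000995. The 81 tested of 83 cytoplasmic ribosomal protein genes had similar medians of -0.12 and -0.15. Of these genes, 1 rose and 2 fell in S1pr1 KO, or 3.70% called, against 1.35% of all genes tested. None was called in C3 KO, where 47, or 58.0%, had an unadjusted p under 0.05, against 10.96% of all genes tested. The 463 processed pseudogenes without such a name at the same floor had medians of -0.07 and -0.08. In S1pr1 KO, 2 of them rose and 17 fell, or 4.10% called. None was called in C3 KO, where 42 had an unadjusted p under 0.05, or 9.07%, which is below the share of all genes tested. The 34 large subunit members had medians of -0.24 and -0.23, the 27 small subunit members -0.20 and -0.12, and the 78 others -0.05 and -0.10.

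The position of the parents is given because C3 lies on chromosome 17 and S1pr1 on chromosome 3. Of the 131 pairs, 12 had a parent on chromosome 17 and 6 on chromosome 3. Among the 12, the ratio to the parent was lower in every S1pr1 KO than every WT library for Atp6v0c-ps2, Rnps1-ps, Rps2-ps13, Rps2-ps6 and Glo1-ps. Their parents lie between 24382840 and 30845845, and Rps2-ps13 and Rps2-ps6 share one. Over all 131 pairs, in either direction, 18 separated these groups. These pairs themselves set the ends of that interval, so the sorting of pairs into inside and outside is no test. Within that interval the copies of Rps10 and Rpl10a did not separate the groups, with differences of -0.50 for Rps10-ps2 (two-sided exact permutation p = 0.0571), -0.44 for Rps10-ps1 (exact p = 0.0857) and -0.11 for Rpl10a-ps1 (exact p = 0.371). Mpc1-ps, Rab11b-ps2, Rps18-ps3 and Rpl36-ps12, with parents outside it, had differences of -0.06, 0.10, 0.14 and -0.04. Rpl36, at 56920416 to 56921243, is the parent nearest to C3. In C3 KO against WT, CPM ranges, another measure than the ratio, were apart for 6.12% of all genes tested. In that comparison the ratio reached the smallest exact permutation p of 0.0286 in 9 of the 131 pairs, without adjustment over the pairs. Among them were Atp6v0c-ps2 (-4.16), Rnps1-ps (-3.68) and Glo1-ps (-1.74). In these named pairs the library labelled C3 KO 4 came close to WT, with 27.4%, 21.7% and 5.21% of reads in the pseudogene. C3 KO 1 to 3 had at most 0.534%, 0.632% and 0.717%. WT libraries had 27.6% to 29.1%, 23.8% to 26.5% and 5.65% to 6.24%. The mean differences thus mix both kinds of library. Rps2-ps13 differed by -0.41 (exact p = 0.114), Rps2-ps6 by -0.92 (exact p = 0.0857) and Rpl36-ps12 by 0.04 (exact p = 0.714). Among the 6 with a parent on chromosome 3, only Rpl34-ps1 separated S1pr1 KO from WT libraries. Its parent Rpl34 lies at 130520480 to 130524047, farther from S1pr1 than the parents of Atp5pb-ps, Gstm2-ps1, Psma5-ps and Stxbp3-ps, whose differences were 0.18, -0.24, -0.07 and 0.07. The strain background of the mice is not among the labels used here, and genotype and background cannot be told apart.

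Some pairs split their reads differently among libraries of the same group. Rpl17-ps10 had 139, 69.1, 72.5 and 125 CPM in S1pr1 KO, 162, 158, 72.4 and 58.5 CPM in C3 KO, and 91.5, 162, 155 and 197 CPM in WT libraries. Rpl17, a large subunit protein gene, had 77.6, 133, 152 and 95.4 CPM in S1pr1 KO, 56.8, 40.4, 141 and 160 CPM in C3 KO, and 149, 73.5, 75.3 and 61.6 CPM in WT libraries. Where the one was high the other was low, and the sum of both stayed between 199 and 259 CPM. Neither gene was called in any comparison, while the sum was 216 ± 9.71 CPM in S1pr1 KO and 212 ± 9.27 CPM in C3 KO, against 241 ± 12.5 CPM in WT lungs (SD, n = 4 each; two-sided exact permutation p = 0.0286 for either knockout against WT). Sums of all 131 pairs were tested in this way, without adjustment, and both comparisons share the WT libraries. Cytoplasmic ribosomal protein genes also lay lower, with median fold changes of -0.12 in S1pr1 KO and -0.15 in C3 KO against WT. Rps27a, the gene of a ubiquitin and ribosomal protein fusion, ranged from 79.7 to 223 CPM, and adding its 2 copies did not level it, since the family's sum ranged from 90.1 to 229 CPM. The sum of Rpl30 and its 2 copies was high in S1pr1 KO, at 140 to 178 CPM, and in C3 KO 4, at 148 CPM. It was lower in C3 KO 1 to 3, at 75.0 to 90.9 CPM, and in WT libraries, at 83.1 to 87.2 CPM.

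A few members stood out in single libraries. Ube2n-ps1, identical over 459 bases to the gene of a ubiquitin-conjugating enzyme, had 7.68 CPM in S1pr1 KO 3 and 0.681 to 1.5 CPM in the other 11 libraries. H2af-ps2, a histone H2A copy, had 0.0550 CPM in S1pr1 KO 3, against 2.01 to 4.65 CPM elsewhere. Rpl30-ps10 had 2.91 CPM in S1pr1 KO 4 and 1.70 CPM in C3 KO 2, against 5.36 to 11.6 CPM in the other 10 libraries. Gad1-ps ranged from 0.713 CPM in C3 KO 4 to 6.10 CPM in C3 KO 3, and each group spread widely. The S1pr1 KO and WT ranges of these 4 members overlapped, as did the C3 KO and WT ranges.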

How the data were processed

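Whole-lung RNA of 12 libraries was sequenced. The deposited count table held whole-number read counts per gene, 1 column per library, and the deposited FPKM table held the same genes per kilobase of listed length, scaled to library size by the authors. Per the submitters' processing notes, CASAVA and STAR were used, with GRCm39 and mm39 as builds. The counting tool, its strand setting and its treatment of reads that match several places were not given in the sources used here, which bears on every pseudogene and parent of near-identical sequence.

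Groups came from the genotype labels. CPM was the count scaled to the library's total. The main test on the counts was that of edgeR 4.0.16, run in R 4.3.3 (filterByExpr, TMM scaling, quasi-likelihood, a mean for each of 3 groups, 9 residual degrees of freedom), and p-values were adjusted over 20229 genes by Benjamini and Hochberg's method. The test was tried on simulated data. DESeq2 1.42.0, limma 3.58.1 (voom with quality weights), other filters and scalings, and each library left out were alternatives. Log2 ratios of pseudogene to parent, with 0.5 CPM added to each, were tested by two-sided exact permutation. Pseudogene transcripts were aligned to coding transcripts of GENCODE vM21 with BLAST+ 2.17.0, by Ensembl ID and without coordinates. Named members were those called in any comparison, the 5 with the lowest p in each, the 8 highest, the 8 most variable, the 4 highest and 4 lowest ratios and those beside the floor. A few others were named after their values were seen, namely Rps2-ps13, the copies of parents on chromosomes 17 and 3, and the Rps27a and Rpl30 families. One call among the parents and some sequences are not reported here. The members and lists were chosen with earlier results of these data known. P-values reflect how far the samples of a group spread, which may be technical, and intervals between replicates cover no error of read assignment.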

Additional observations from a re-analysis of the deposited data

Results flagged for a closer look

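In each group of 4 libraries, a library was picked out where its gap to the nearest of the others, relative to the group's range, exceeded Dixon's 95% critical value. This was so for 12 of 90 groups tested over the 30 named members, and chance alone picks about 1 in 20 in groups not chosen for their values. Members were named partly for varying most or for their p, so the count cannot be read against that share. The library labelled C3 KO 4 lay above the other C3 KO libraries for Atp6v0c-ps2 (32.6 against 0.322 to 0.574 CPM), Rnps1-ps (11.9 against 0.146 to 0.401 CPM), Glo1-ps (4.02 against 0.117 to 0.315 CPM), Tdg-ps2 (3.85 against 0.791 to 1.13 CPM) and Rps2-ps6 (1.10 against 0.146 to 0.258 CPM). Its C3 level, 1409 CPM, was also above the 465 to 595 CPM of C3 KO 1 to 3. C3 KO 1 lay below the others of its group for Rpl34-ps1 (27.4 against 86.3 to 94.2 CPM), and C3 KO 2 for Rps18-ps3 (0.117 against 0.522 to 0.574 CPM).

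S1pr1 KO 3 lay above the others of its group for Ube2n-ps1 (7.68 against 0.757 to 1.15 CPM) and, at a low level, for Rnps1-ps (0.413 against 0.122 to 0.155 CPM). S1pr1 KO 2 was higher for Eif4a-ps4 (46.4 against 41.0 to 41.5 CPM), and S1pr1 KO 4 was lower for Rpl30-ps10 (2.91 against 11.1 to 11.6 CPM). WT 1 was lower for Rpl21-ps11 (0.234 against 0.341 to 0.355 CPM). The causes were not tested.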

How the results depend on the processing

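The number of member pseudogenes called depended on the tool and on single libraries. In S1pr1 KO against WT, 10 members of 274 genes were called by edgeR, 18 of 1279 by DESeq2 and 17 of 928 by voom with quality weights. With single libraries left out, members ranged from 0 to 14 and all genes from 2 to 571, and without both libraries that go against their label 473 genes were called. In C3 KO against WT, edgeR called 0 members of 2 genes, DESeq2 4 of 177, voom 4 of 21, the fit on these groups alone 1 gene, and the fit without both libraries 6 of 31. Single libraries left out gave 0 to 6 members and 1 to 32 genes. In S1pr1 KO against C3 KO, edgeR called 0 genes, DESeq2 2 members of 317 genes, voom 36 genes, no filter 1 member of 15 genes, and the fit without both libraries 3 genes. Single libraries left out gave 0 to 2 members and 0 to 13 genes. Leaving out both libraries was added after the data were seen. DESeq2 gave no adjusted p for Atp6v0c-ps2, Glo1-ps and Rnps1-ps against WT. The sign turned round for 3 small differences that passed in no fit. These were the fold change of Rpl21 in S1pr1 KO against WT (-0.30 to 0.13 with a library left out, 0.080 without both), the log2 ratio of Rpl17-ps3 in C3 KO against WT (-0.62 to 0.048 with a library left out, 0.048 without C3 KO 4 as without both) and that of Rpl21-ps8 in S1pr1 KO against C3 KO (-0.17 to 0.15, above 0 without C3 KO 1, C3 KO 3 or S1pr1 KO 1). The members numbered 109 at a floor of 1 CPM, 189 at 0.25 CPM, 139 with TMM library sizes and 112 with 0.5 CPM in every library. The cause of these changes was not tested. No paired analysis was possible because the labels give no replicate numbers that tie libraries across groups. Members near the floor rest on few reads, and an exact test of 3 against 3 libraries cannot pass 0.05.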
